A study of Mus musculus with 5 samples.

Results

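The genes described here are 50 cell cycle genes, matched by symbol in the list of 27998 genes that the 5 libraries of the study share. They fall into 4 cyclins of G1 and of the G1/S transition, 15 genes of DNA replication and nucleotide supply (the S phase members) and 31 genes that act from G2 to the end of cell division (the mitotic members). All 50 were in the gene list, and 40 of them had at least 50 unique molecular identifiers (UMIs, each standing for 1 captured RNA molecule) over the 5 libraries. Those 40 are given with their level in every library, and the other 10 by ranges. The rule that picks them uses their symbols and no measured value, but the list itself was chosen with earlier results of these data known.

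The study counted nuclear polyadenylated RNA of single kidney nuclei from male Six2-TGC; Rosa26rtTA; pTRE-H2BeGFP mice aged 10 to 12 weeks. Six2-TGC places Cre under the control of Six2, a factor of the embryonic nephron progenitors, so that with Rosa26rtTA and doxycycline a histone-bound green fluorescent protein (GFP) labels nuclei of nephron descent. Every mouse had doxycycline in its food at 625 mg/kg, and nuclei were sorted by DNA stain and then by GFP. The tubular epithelium of the nephron carries the label, whereas vessels, stroma, immune cells and most of the collecting duct do not descend from Six2 progenitors.

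There were 5 groups with 1 library each. The GFP-negative library without injury is labelled as non-nephron, and the GFP-positive library without injury, the reference for all ratios below, as nephron. Both carry the same serum values, 0.122 mg/dL for creatinine and 26.1 mg/dL for urea nitrogen. The 3 other libraries are GFP-positive nuclei from mice with ischaemia-reperfusion injury (IRI) of both kidneys, harvested at 64 h, at 96 h and at 28 d. Creatinine at harvest stood at 0.375, 0.312 and 0.144 mg/dL in these animals, and urea nitrogen at 37.0, 91.8 and 31.7 mg/dL. The labels call the reference uninjured, while the protocol text also describes sham surgery without clamping, so it is not clear whether those animals were operated on, nor how many mice gave a library. With 1 library per group no difference between groups can be tested, so no p-value is given. The intervals in square brackets are 95% intervals that cover counting error only, and "higher" and "lower" describe these libraries. Intervals on UMI counts treat UMIs as independent, which UMIs of the same nucleus are not. They are therefore too narrow where few nuclei hold many of the UMIs.

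Adult tubule cells divide rarely, and after ischaemic injury surviving cells re-enter the cycle and replace lost epithelium. D-type cyclins drive G1, E-type cyclins open S phase, the MCM helicase and the DNA polymerases copy the genome, and cyclin A and cyclin B with Cdk1 bring the cell into mitosis, where kinesins, kinetochore proteins and condensins sort the chromosomes. Many S phase genes carry promoter sites for E2F factors, and many mitotic genes carry a cell cycle homology region (CHR), bound by the DREAM and MuvB complexes, together with CCAAT boxes, which NF-Y binds.

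After the removal of barcodes with fewer than 200 genes or more than 10% mitochondrial UMIs, the libraries held between 3012 and 3508 nuclei. Depth differed: the reference held 7153971 UMIs with a median of 1793.5 per nucleus, and the 96 h library, the shallowest, 1856284 with a median of 507. The other 3 libraries had medians between 964.5 and 1290. Any 2 libraries shared at most 20 cell barcodes. Proximal tubule (PT) markers summed to between 18214 and 29249 UMIs scaled to a library total of 1e6 (CPM) in the GFP-positive libraries and to 12215 CPM in the GFP-negative one, where endothelial markers reached 2599 CPM against 133 to 218 CPM elsewhere. Of the 50 members, 11 share bases with a counted gene on the opposite strand, among them Ccnd1, Ccnd2, Ccne2, Mcm7, Gins2, Ccna2, Cdc20, Kif4, Prc1 and Nusap1, so their counts could hold reads of a neighbour where strand was not used.

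Both groups of members were higher at 64 h and at 96 h than without injury, and near the reference at 28 d, with mitotic members further from the reference than S phase members at the early times. Mitotic members summed to 152 CPM in the reference, 374 CPM at 64 h, 371 CPM at 96 h and 186 CPM at 28 d. Those injury sums are 2.46 [2.28 to 2.66], 2.44 [2.22 to 2.69] and 1.23 [1.11 to 1.35] times the reference. S phase members summed to 107 CPM in the reference, 182 CPM at 64 h, 179 CPM at 96 h and 119 CPM at 28 d, which is 1.71 [1.55 to 1.89], 1.68 [1.48 to 1.92] and 1.12 [0.994 to 1.26] times the reference. The 4 G1 cyclins summed to 43.3, 74.9, 71.1 and 41.9 CPM in the same order, most of it Ccnd1.

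Counted gene by gene at 64 h, 39 of the 48 members tested stood above the reference by 1.5-fold or more, and 1 stood below it by as much. A gene was tested where it had at least 10 UMIs over both libraries, and called on the ratio of CPM + 1. Among all genes, 22.5% were higher and 11.0% lower by the same rule at 64 h. At 96 h the count was 33 higher and 2 lower of 43, beside 34.3% higher and 15% lower of all genes. At 28 d it was 7 higher and 3 lower of 43, beside 13.8% and 9.19%, so the share of members called higher was near that of all genes. The median log2 ratio of the members was 1.15, 0.96 and 0.15 at the 3 times, against 0.16, 0.24 and 0.07 for all genes tested. Scaling by trimmed mean of M-values (TMM) shifted every log2 ratio by -0.21, -0.35 and -0.12. Under it the members counted 37 higher and 1 lower at 64 h, 27 and 3 at 96 h and 6 and 3 at 28 d, while all genes turned to 15.7% higher and 17% lower, 23.1% and 26%, and 10.6% and 12.7%. The 96 h and 28 d counts depended on the rule. With at least 30 UMIs asked for, the members counted 29 higher and 1 lower at 64 h, 18 and 1 at 96 h and 2 and 2 at 28 d, beside 21.7% and 9.94%, 33.4% and 14.2%, and 12.2% and 8% of all genes. With a fold of 2 they counted 29 and 0, 20 and 1, and 4 and 0, beside 9.23% and 4.1%, 19.5% and 6.95%, and 4.14% and 2.83%. With 5 CPM added in place of 1 they counted 28 and 1, 22 and 1, and 4 and 0, beside 14.3% and 5.42%, 26.5% and 9.4%, and 6.53% and 3.74%.

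The promoters of 6 members are printed here because these genes carry the patterns described below: Top2a and Cdc20 for the mitotic members whose UMIs lie together in few nuclei, Mcm5 and Mcm6 for the helicase, and Kif20b and Smc2 for the 2 mitotic members that departed from the rest. Each is the 250 bases before the annotated start, 5′ to 3′ on the strand of the gene, from RefSeq on build GRCm38.p6. Top2a lies at chr11:99024190-99024439 on the minus strand, Cdc20 at chr4:118437344-118437593 on the minus strand, Mcm5 at chr8:75109259-75109508 on the plus strand, Mcm6 at chr1:128359706-128359955 on the minus strand, Kif20b at chr19:34922108-34922357 on the plus strand and Smc2 at chr4:52438971-52439220 on the plus strand. Capitals mark matches, on either strand, to the CHR (TTTGAA or TTCGAA), the CCAAT box (CCAAT) and the E2F site (TTTCGCGC, TTTGGCGC, TTTCCCGC or TTTGCCGC). Matches may overlap, as where E2F sites on both strands meet.
Top2a: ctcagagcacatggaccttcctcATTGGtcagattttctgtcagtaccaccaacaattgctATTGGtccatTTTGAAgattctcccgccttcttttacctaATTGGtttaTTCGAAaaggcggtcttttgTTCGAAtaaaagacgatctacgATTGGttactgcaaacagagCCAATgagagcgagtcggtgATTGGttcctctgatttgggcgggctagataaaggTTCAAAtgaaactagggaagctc
Cdc20: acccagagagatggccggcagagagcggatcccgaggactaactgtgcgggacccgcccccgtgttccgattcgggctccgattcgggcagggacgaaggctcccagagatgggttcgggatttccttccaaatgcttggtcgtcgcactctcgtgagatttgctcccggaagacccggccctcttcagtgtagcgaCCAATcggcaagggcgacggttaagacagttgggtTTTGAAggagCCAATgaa
Mcm5: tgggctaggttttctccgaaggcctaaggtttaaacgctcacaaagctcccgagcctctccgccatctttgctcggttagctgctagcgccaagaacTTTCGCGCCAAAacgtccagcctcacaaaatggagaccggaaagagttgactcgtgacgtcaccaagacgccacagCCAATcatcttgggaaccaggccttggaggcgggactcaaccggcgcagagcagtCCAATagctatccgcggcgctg
Mcm6: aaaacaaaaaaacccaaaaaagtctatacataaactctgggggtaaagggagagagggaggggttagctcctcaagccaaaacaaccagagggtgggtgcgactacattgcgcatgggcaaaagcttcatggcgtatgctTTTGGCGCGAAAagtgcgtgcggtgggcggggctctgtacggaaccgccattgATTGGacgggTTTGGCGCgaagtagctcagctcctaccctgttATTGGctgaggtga
Kif20b: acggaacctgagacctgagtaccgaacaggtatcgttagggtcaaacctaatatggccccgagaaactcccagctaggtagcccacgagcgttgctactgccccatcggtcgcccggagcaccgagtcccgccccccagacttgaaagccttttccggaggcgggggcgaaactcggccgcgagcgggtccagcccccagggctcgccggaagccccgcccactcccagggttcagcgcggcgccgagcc
Smc2: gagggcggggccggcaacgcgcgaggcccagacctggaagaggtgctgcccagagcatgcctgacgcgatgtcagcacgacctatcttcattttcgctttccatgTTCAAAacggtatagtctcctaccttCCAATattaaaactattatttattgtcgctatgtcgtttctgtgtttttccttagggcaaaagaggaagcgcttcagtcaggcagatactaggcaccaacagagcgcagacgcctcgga

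The Top2a window holds 4 CHR matches and 6 CCAAT boxes, and that of Cdc20 holds 1 and 2. In Mcm5 there are 2 CCAAT boxes and 2 E2F matches, and in Mcm6 2 and 3, with no CHR match in either. The printed windows do not stand for all their peers. Of other helicase subunits, Mcm2 and Mcm7 hold a CHR match, and Mcm2 and Mcm3 hold no E2F match while Mcm7 does. Of other mitotic members gathered in few nuclei, Kif11 and Kif15 hold a CHR match, and Cenpa and Hmmr do not. Smc2 has 1 CHR match and 1 CCAAT box, and Kif20b has no match to any of the 3 motifs. Over the mitotic members with a promoter in the table (26 of 31), 42.3% hold a CHR match, 80.8% a CCAAT box, 38.5% both and 7.69% an E2F match. Of the S phase members (12 of 15 in the table), 16.7% hold a CHR match, 91.7% a CCAAT box and 41.7% an E2F match. Among all 27025 promoters of this length the shares are 19.6%, 37.5% and 2.16%, and 7.93% hold both a CHR match and a CCAAT box. A match is a stretch of letters and not a tested site.

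Among the G1 cyclins, Ccnd1 and Ccne2 were higher early after injury, and Ccnd2 and Ccne1 had too few UMIs in the GFP-positive libraries at 64 h and 96 h to be tested. Levels in this and the following paragraphs are given in the order no injury, 64 h, 96 h and 28 d, followed by the GFP-negative library. Ccnd1 encodes cyclin D1, which couples growth signals to entry into the cycle, and was at 41.2, 66.2, 65.2 and 37.4 CPM, and at 31.5 CPM in GFP-negative nuclei. Relative to the reference it stood at 1.61 [1.36 to 1.89] and 1.58 [1.27 to 1.96] at the early times and at 0.908 [0.737 to 1.11] by 28 d. Cyclin E2, which starts replication with Cdk2, is encoded by Ccne2, and 9, 33, 5 and 5 UMIs gave 1.26, 7.33, 2.69 and 1.33 CPM, with 1.30 CPM in GFP-negative nuclei. The 64 h ratio was 5.83 [2.73 to 13.8], and the 96 h ratio of 2.14 rested on 5 UMIs, with an interval from 0.564 to 7.11. Ccnd2, cyclin D2, had most of its UMIs in the GFP-negative library, with 17.7 CPM there from 68 UMIs, of which 43 lay in endothelium-like nuclei and 12 in macrophage-like nuclei. In the GFP-positive libraries it had 2, 3, 2 and 11 UMIs (0.28, 0.667, 1.08 and 2.92 CPM).

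Of the 15 S phase members, 9 were called higher at 64 h and none lower. Of 14 tested at 96 h, 10 were higher and 1, Mcm4, was lower. The highest ratios belonged to Rrm2 and Uhrf1. Rrm2, the cycle-dependent subunit of ribonucleotide reductase, which makes deoxynucleotides, was at 0.699, 5.33, 10.8 and 3.72 CPM, and at 1.30 CPM in GFP-negative nuclei. Relative to the reference this was 7.63 [2.85 to 25.6], 15.4 [5.61 to 52.6] and 5.32 [1.81 to 18.9], and Rrm2 was 1 of 2 S phase members still called higher at 28 d, beside Mcm2. The large subunit of the same enzyme, Rrm1, was at 2.94, 8.67, 6.46 and 4.78 CPM, and at 4.94 CPM in GFP-negative nuclei. Uhrf1, which brings the maintenance methyltransferase to newly copied DNA, was at 0.978, 8.22, 10.2 and 1.59 CPM, and at 2.08 CPM in GFP-negative nuclei, with ratios of 8.40 [3.70 to 22.3] and 10.5 [4.21 to 29.4] at the early times. Atad2, a bromodomain protein that binds newly made chromatin, was at 7.13, 22.7, 13.5 and 8.76 CPM, and at 15.9 CPM in GFP-negative nuclei, and its 64 h ratio was 3.18 [2.25 to 4.54].

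The helicase subunits Mcm2 to Mcm7, which unwind DNA at the fork, did not share 1 size of difference. Mcm6 was at 7.55, 14.2, 15.6 and 8.76 CPM, and at 10.4 CPM in GFP-negative nuclei, with early ratios of 1.88 [1.29 to 2.76] and 2.07 [1.27 to 3.31]. Mcm7 was at 13.4, 17.6, 22.6 and 15.4 CPM, and at 16.6 CPM in GFP-negative nuclei, and only its 96 h ratio of 1.69 [1.14 to 2.45] had an interval above 1 at the 3 times. The other 3 named subunits had between 2 and 22 UMIs per library. Mcm2 was at 1.40, 3.33, 3.23 and 2.65 CPM, with 3.64 CPM in GFP-negative nuclei. Mcm4 was at 2.24, 4.89, 1.08 and 1.59 CPM, with 4.94 CPM in GFP-negative nuclei, and its 96 h ratio of 0.482 came from 2 UMIs, with an interval from 0.0537 to 2.05. Mcm5 was at 2.24, 3.56, 4.85 and 1.59 CPM, with 2.60 CPM in GFP-negative nuclei. In these 3 genes the intervals of all ratios to the reference at the 3 times but those of Mcm2 and Mcm4 at 64 h, 2.38 [1.00 to 5.93] and 2.19 [1.1 to 4.45], reached below 1.

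Of the genes that make the copy itself, Pola1 and Tyms went different ways over the 2 early times. Pola1, the catalytic subunit of DNA polymerase alpha, had the most UMIs of any S phase member and was at 36.6, 51.1, 29.6 and 40.6 CPM, with 36.4 CPM in GFP-negative nuclei. It was 1.40 [1.16 to 1.67] times the reference at 64 h and 0.809 [0.594 to 1.09] at 96 h. Tyms, thymidylate synthase, was at 16.1, 15.1, 34.5 and 14.3 CPM, with 17.4 CPM in GFP-negative nuclei. Its ratio was 0.940 [0.686 to 1.28] at 64 h and 2.14 [1.55 to 2.94] at 96 h, so the 2 intervals do not meet. Prim1, the primase that starts each strand, was also further from the reference at 96 h, with 8.11, 11.8, 18.3 and 8.76 CPM and 10.7 CPM in GFP-negative nuclei, and a 96 h ratio of 2.26 [1.43 to 3.51]. Pcna, the sliding clamp, was at 4.33, 6.67, 5.39 and 3.45 CPM, with 5.72 CPM in GFP-negative nuclei, and every interval of its ratios held 1. Gins2, a subunit of the GINS complex of the replication fork, was at 2.1, 5.55, 2.69 and 2.65 CPM, with 1.30 CPM in GFP-negative nuclei, and a 64 h ratio of 2.65 [1.34 to 5.40].

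Of the 31 mitotic members, 28 were called higher at 64 h, 1 lower and 2 lay between. At 96 h, 21 of 27 tested were higher and 1 lower. At 28 d 4 of 26 were higher and 3 lower, near the 13.8% and 9.19% of all genes. Kif20b was the member lower at both early times. The kinase and cyclins that carry the cell into mitosis differed among themselves. Cdk1, the kinase itself, had 2, 29, 11 and 5 UMIs (0.28, 6.44, 5.93 and 1.33 CPM) and 3 UMIs (0.78 CPM) in GFP-negative nuclei, which gave wide ratios of 23.0 [5.83 to 199] and 21.2 [4.63 to 197]. Ccnb2, cyclin B2, was at 1.68, 4.00, 4.31 and 4.25 CPM, with 1.56 CPM in GFP-negative nuclei, and was 2.53 [1.12 to 5.86] times the reference at 28 d. Ccna2, cyclin A2, was at 8.53, 6.89, 10.8 and 7.96 CPM, with ratios of 0.808 [0.507 to 1.26], 1.26 [0.722 to 2.12] and 0.934 [0.582 to 1.47] that all held 1. Its level of 2.08 CPM in GFP-negative nuclei was 0.244 [0.101 to 0.512] times that in GFP-positive nuclei. Ccna2 overlaps Exosc9 on the opposite strand, and the part of such reads in its counts was not tested.

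Top2a, Mki67, Cdc20 and Cdca8 were high at both early times. At 28 d their levels lay under the reference and that of Bub1b above it, a contrast that rests on few UMIs. At 28 d Top2a, Mki67, Cdc20, Cdca8 and Bub1b had 6, 10, 4, 5 and 10 UMIs, beside 21, 22, 10, 15 and 11 in the reference. Top2a, the topoisomerase that untangles sister chromatids, was at 2.94, 21.1, 15.6 and 1.59 CPM, with 4.42 CPM in GFP-negative nuclei. That is 7.19 [4.45 to 12.1] and 5.32 [2.93 to 9.82] times the reference at the early times and 0.543 [0.179 to 1.39] at 28 d. Mki67, the Ki-67 proliferation antigen, was at 3.08, 12.7, 16.2 and 2.65 CPM, with 3.90 CPM in GFP-negative nuclei, and ratios of 4.12 [2.48 to 7.07], 5.26 [2.93 to 9.56] and 0.863 [0.365 to 1.90]. Cdc20, which activates the anaphase-promoting complex, followed with 1.40, 7.11, 9.16 and 1.06 CPM and 1.30 CPM in GFP-negative nuclei. Its early ratios were 5.09 [2.44 to 11.6] and 6.55 [2.83 to 16.0]. Cdca8, a subunit of the chromosomal passenger complex, was at 2.1, 6.22, 6.46 and 1.33 CPM, with 1.56 CPM in GFP-negative nuclei. Bub1b, a spindle checkpoint kinase-like protein, was at 1.54, 4.22, 3.23 and 2.65 CPM, with 4.16 CPM in GFP-negative nuclei.

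The 3 members that make kinetochore or centromere proteins were called higher at 64 h, and at 28 d Cenpe was called lower. Cenpf was at 2.94, 20.4, 17.8 and 4.51 CPM, with 1.04 CPM in GFP-negative nuclei and early ratios of 6.96 [4.30 to 11.8] and 6.06 [3.40 to 11.0]. Cenpa, the centromeric histone, was at 1.40, 7.11, 3.23 and 1.33 CPM, with 3.90 CPM in GFP-negative nuclei. Cenpe, a kinetochore motor, was at 5.45, 10.9, 6.46 and 2.65 CPM, with 3.90 CPM in GFP-negative nuclei, and its ratios were 2.00 [1.28 to 3.12], 1.19 [0.565 to 2.31] and 0.487 [0.217 to 0.993].

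Among spindle genes, the ratio was larger at 64 h than at 96 h for Kif11 and Kif15, with intervals that overlap, and similar at both for Kif4 and Tpx2. Kif11, the motor that pushes the spindle poles apart, was at 2.80, 11.1, 4.85 and 2.92 CPM, with 2.86 CPM in GFP-negative nuclei and a 64 h ratio of 3.97 [2.32 to 7.05]. Kif15, which also drives spindle assembly, was at 2.80, 10.7, 7 and 2.39 CPM, with 3.12 CPM in GFP-negative nuclei. Kif4, a chromosome-bound kinesin, was at 2.80, 9.55, 10.8 and 3.72 CPM, with 3.90 CPM in GFP-negative nuclei. Tpx2 targets Aurora A to the spindle, and it stayed apart from the reference at all 3 times: it was at 4.61, 19.1, 20.5 and 10.9 CPM, with 10.4 CPM in GFP-negative nuclei. The ratios of Tpx2 were 4.14 [2.74 to 6.39], 4.44 [2.71 to 7.30] and 2.36 [1.46 to 3.85]. Nusap1, which stabilises spindle microtubules, was at 10.9, 26.0, 30.2 and 14.1 CPM, with 10.9 CPM in GFP-negative nuclei, and early ratios of 2.38 [1.78 to 3.22] and 2.77 [1.93 to 3.95].

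Kif23, Anln, Prc1 and Ect2, which act in cytokinesis, were called higher at 64 h, whereas Kif20b, described further down, was lower. Kif23, a subunit of centralspindlin, was at 6.71, 24.4, 24.2 and 8.23 CPM, with early ratios of 3.64 [2.57 to 5.23] and 3.61 [2.35 to 5.54]. Its 19.8 CPM in GFP-negative nuclei was 2.95 [2.03 to 4.32] times the GFP-positive level. Anln, the actin-binding anillin of the cleavage furrow, was at 5.73, 22.4, 15.6 and 4.25 CPM, with 14.0 CPM in GFP-negative nuclei. Prc1, which bundles the midzone microtubules, was at 4.19, 16.2, 12.9 and 2.39 CPM, with 4.16 CPM in GFP-negative nuclei and a 64 h ratio of 3.87 [2.5 to 6.13]. Ect2, the exchange factor that activates RhoA at the furrow, was at 8.39, 18.9, 7 and 8.49 CPM, with 7.54 CPM in GFP-negative nuclei, which is 2.25 [1.60 to 3.19] times the reference at 64 h and 0.835 [0.420 to 1.54] at 96 h. Smc4, a core condensin subunit, was at 20, 43.8, 23.7 and 22.3 CPM, with 29.9 CPM in GFP-negative nuclei, and likewise had a high ratio at 64 h, 2.19 [1.76 to 2.74], and one that held 1 at 96 h, 1.19 [0.826 to 1.67].

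**Figure D1:**
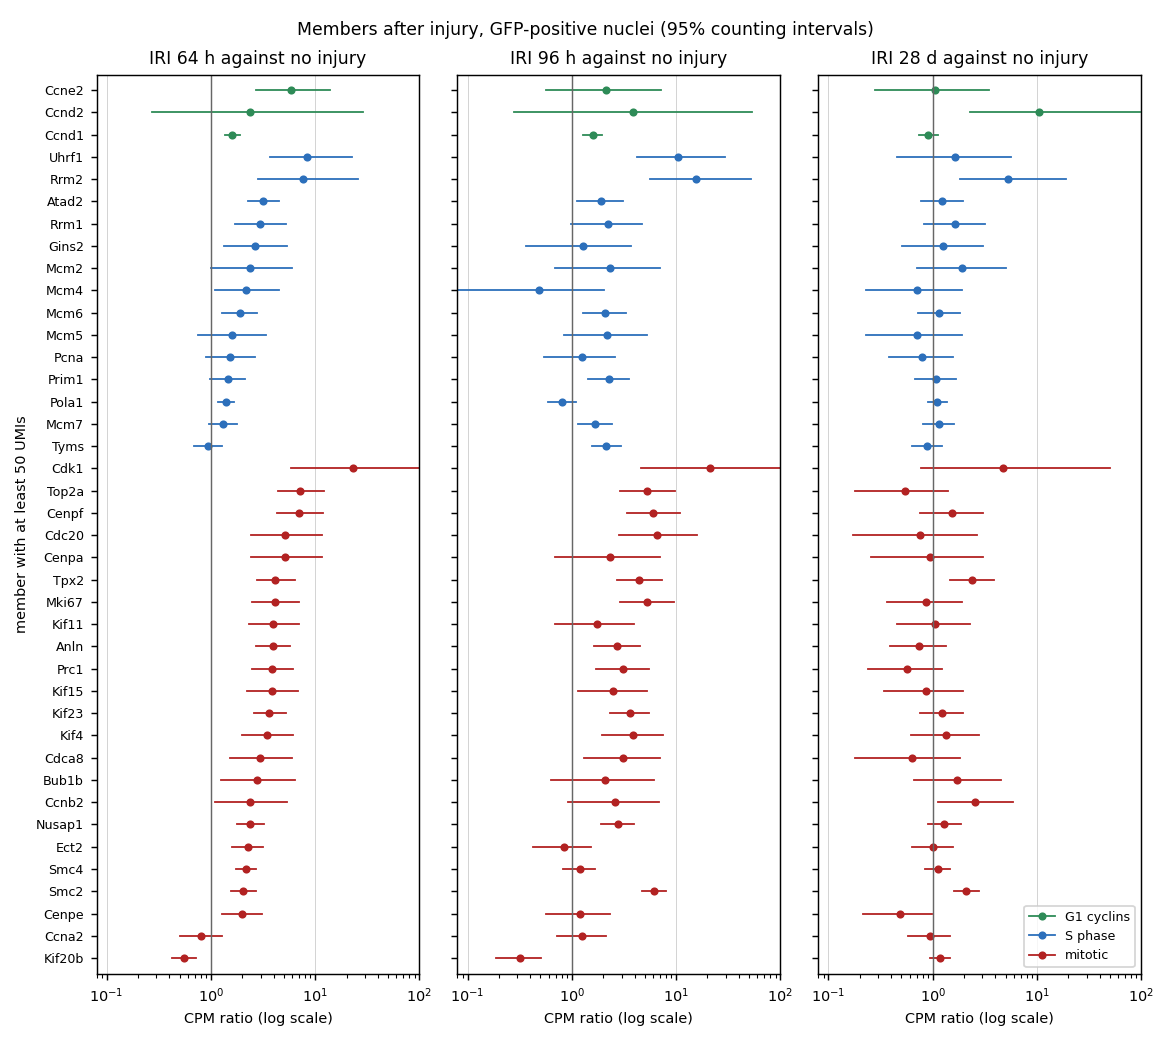
Ratio of each member's CPM at 64 h, 96 h and 28 d after IRI to its CPM in GFP-positive nuclei without injury, on a log axis, for the 40 members with at least 50 UMIs over the 5 libraries. Points are ratios, bars are 95% counting intervals (those that run past the axis are cut off), and colours give the role; most points lie right of the line at 1 at 64 h and 96 h, with Kif20b on its left, and around the line at 28 d.

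The 10 members with fewer than 50 UMIs had between 13 (Ccne1) and 44 (Hmmr) UMIs over the 5 libraries. They are Ccne1, Mcm3, Ccnb1, Kif20a, Aurka, Aurkb, Bub1, Plk1, Hmmr and Melk, which include the Aurora kinases and the Polo-like kinase of mitotic entry. At 64 h 8 of them were called higher. Hmmr, a spindle protein that binds hyaluronan, had 8, 21, 10 and 3 UMIs, and 2 in GFP-negative nuclei. Bub1 had 1, 10, 0 and 0 UMIs in the GFP-positive libraries. Those 0 counts allow up to 1.62 CPM at 96 h and 0.796 CPM at 28 d (3 UMIs of the library).

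Kif20b and Smc2 were the mitotic members whose UMIs lay in particular clusters of PT-like nuclei. Clusters were made from variable genes that left out every cell cycle list, and were named by marker genes with the suffix "-like". Kif20b encodes a kinesin of the central spindle and was at 32.1, 17.8, 10.2 and 38.0 CPM in the GFP-positive libraries, in the order used above, with 32.2 CPM in GFP-negative nuclei. Its ratios were 0.553 [0.423 to 0.716], 0.318 [0.188 to 0.509] and 1.18 [0.951 to 1.46]. A PT-like cluster led by Cyp7b1 and Slc22a19 held 123 of its 230 UMIs without injury (53.5%), 98 of 124 in GFP-negative nuclei (79.0%) and 56 of 143 at 28 d. Kif20b stood at 206, 179 and 216 CPM in that cluster in these 3 libraries. Its size was 220 nuclei in the reference, 6 at 64 h, 44 at 96 h and 178 at 28 d, and in the 64 h and 96 h libraries it had 0 Kif20b UMIs, with an upper bound of 117 CPM at 96 h. In all other nuclei it was at 16.3, 17.8, 10.4 and 24.8 CPM. Its ratios there were 1.09 [0.807 to 1.47], 0.638 [0.370 to 1.05] and 1.52 [1.13 to 2.04], so the low 64 h ratio of all nuclei was not seen outside that cluster.

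Smc2, the condensin partner of Smc4, was at 13.8, 28.2, 85.1 and 29.2 CPM, with 13.0 CPM in GFP-negative nuclei, and its ratios were 2.04 [1.56 to 2.68], 6.15 [4.75 to 7.99] and 2.11 [1.59 to 2.80]. At 96 h, 121 of its 158 UMIs (76.6%) lay in a PT-like cluster led by Fgg, Brca2 and Snx31, which held 1867 of the 3202 nuclei of that library and 12 of the reference. The level in that cluster was 113 CPM. In all other nuclei the 96 h ratio was 3.41 [2.27 to 5.02], and the 28 d ratio 2.11 [1.59 to 2.80]. Smc2 and Smc4, which form 1 complex, thus had 96 h ratios whose intervals do not meet. Without Kif20b and Smc2, a choice made after the data were seen, the mitotic sum was 3.10, 2.60 and 1.12 times the reference at 64 h, 96 h and 28 d.

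**Figure D2:**
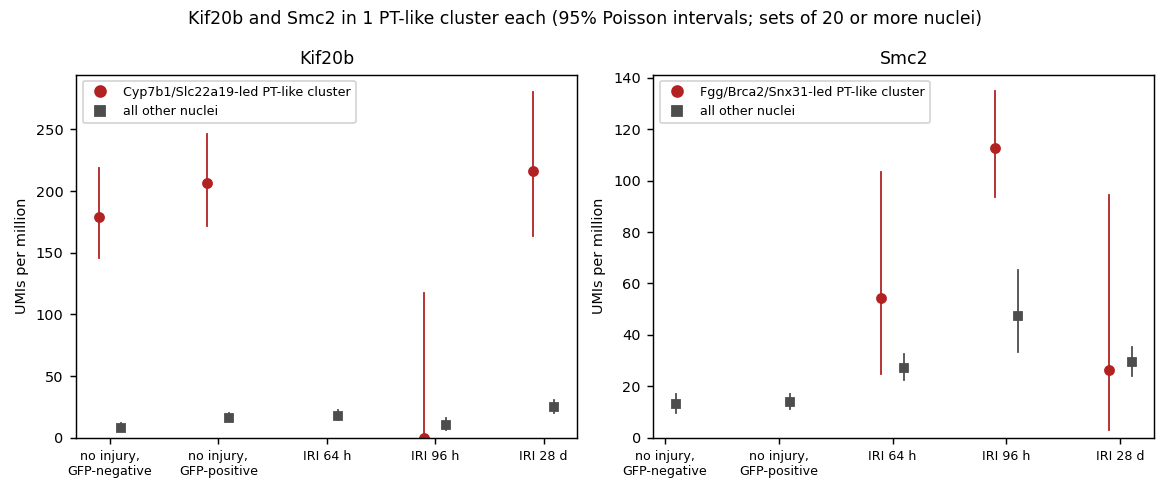
Level of Kif20b (left) and Smc2 (right) in 1 PT-like cluster each and in all other nuclei of the 5 libraries, in CPM, with 95% Poisson intervals; sets under 20 nuclei are left out. Kif20b stands at 179 to 216 CPM in the Cyp7b1/Slc22a19-led cluster where it is detected there, and Smc2 stands highest in the Fgg/Brca2-led cluster at 96 h.

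In the GFP-negative library without injury, 11 of 43 members tested were called higher than in the GFP-positive library and 2 lower, beside 36.5% higher and 9.68% lower of all genes. The members that were higher are Ccnd2, Rrm1, Mcm2, Mcm4, Uhrf1, Atad2, Cenpa, Kif23, Tpx2, Bub1b and Anln, and the 2 lower ones are Ccna2 and Cenpf. Mitotic members summed to 187 CPM and S phase members to 134 CPM, ratios of 1.23 [1.12 to 1.35] and 1.26 [1.12 to 1.41]. Kif23 in this library was seen in tubule and collecting duct nuclei, with 43.9 CPM in thick ascending limb (TAL)-like, 38.9 CPM in collecting duct principal-like and 40.9 CPM in intercalated-like nuclei, against 1.17 CPM in PT-like nuclei. Macrophage markers were at 160 CPM in this library and between 30.7 and 78.8 CPM in the GFP-positive ones, with 1 or 2 of the 10 markers at 0 in each of the latter. Pola1 was at 280 CPM in its macrophage-like nuclei, from 19 UMIs. The part of these cell types in the difference between the 2 libraries was not tested.

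Mitotic UMIs at 64 h were gathered in few nuclei. At least 4 different mitotic members, a number chosen after the distribution was seen, were found together in 11 of 3508 reference nuclei, in 79 of 3012 at 64 h, 25 of 3202 at 96 h and 7 of 3299 at 28 d, and in 6 of 3338 in the GFP-negative library. The 64 h share was 2.62% [2.08 to 3.26]. In that library 26 nuclei held 10 or more of the 31, and the richest held 21. The 79 nuclei held 54.2% of the mitotic UMIs at 64 h, 24.1% of the S phase UMIs and 4.42% of all UMIs. At 96 h the 25 nuclei held 20.1%, 8.71% and 1.46%, and without injury the 11 nuclei held 13.4%, 5.77% and 0.546%. In all nuclei with fewer than 4 mitotic members, the mitotic sum was 132 CPM in the reference, and 179 CPM at 64 h and 301 CPM at 96 h were 1.36 [1.23 to 1.5] and 2.28 [2.04 to 2.53] times as high. Nuclei with 4 or more were deeper than the rest, with a median of 2326 UMIs against 1271 at 64 h, and deeper nuclei show more genes.

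As counted, only the 64 h library stood above the reference, and at equal depth the 96 h library did too. At least 2 different mitotic members were seen in 3.31% of reference nuclei, and in 6.04%, 2.78% and 1.91% of nuclei at the 3 times after injury and 2.19% in the GFP-negative library. With each nucleus thinned to 500 UMIs the shares were 0.314%, 2.34%, 2.19%, 0.398% and 0.495%. Thinning left out 0, 60, 1557, 281 and 511 shallower nuclei. Any mitotic member at all was seen in 6.21%, 9.72%, 15.1%, 7.99% and 7.85% of thinned nuclei. Distal convoluted tubule (DCT)-like, connecting tubule (CNT)-like and intercalated-like nuclei were pooled as distal nuclei. Their share with any mitotic member was 7.20% without injury, 8.99% at 64 h and 1 of 34 nuclei at 96 h. Among PT-like nuclei it was 5.98%, 7.42% and 15.1%. The distal share is not a background level of single UMIs. Before thinning, 4 of 86 CNT-like and 1 of 49 DCT-like nuclei at 64 h held 4 or more mitotic members. TAL-like nuclei were at 6.97%, 6.64% and 18.2%. Thinned to 300 UMIs, which kept 75 distal nuclei at 96 h, the 96 h shares were 8% in these, 8.46% in PT-like and 10.7% in TAL-like nuclei, so the 96 h gap between PT-like and distal nuclei was not seen there.

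**Figure D3:**
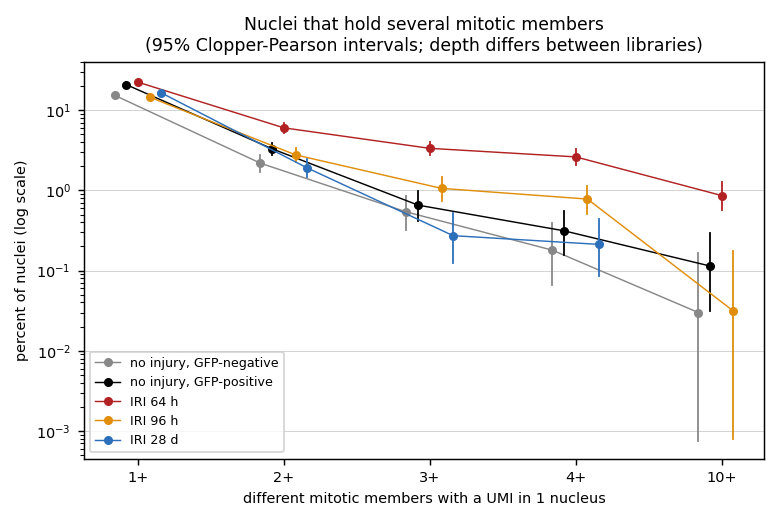
Percent of nuclei in each library (log axis) in which at least 1, 2, 3, 4 or 10 different mitotic members had a UMI, with 95% Clopper-Pearson intervals, unthinned. The 64 h line leaves the others from 2 members on and ends with 26 nuclei at 10 or more; no 28 d nucleus reached 10, so that line stops at 4.

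Members differed in how far they kept to such nuclei. For each gene, the share of its UMIs in nuclei with at least 3 other mitotic members was counted over the 5 libraries, where such nuclei held about 2% of all UMIs. That share was 70.2% [62.7 to 77.0] for Top2a, 66.7% [56.6 to 75.7] for Kif15, 64.7% [52.2 to 75.9] for Cdc20, 60.3% for Cenpa and 56.4% for Kif11. Cenpf, Prc1, Cdk1 and Mki67 lay between 41.0% and 44.9%. At the other end of the mitotic members were Kif23 at 13.9%, Smc2 at 9.93% [7.55 to 12.8], Kif20b at 9.56% [7.32 to 12.2] and Ccna2 at 8.00% [4.20 to 13.6]. These pooled shares mix libraries that differ: for Kif20b the share was 57.5% at 64 h (46 of 80 UMIs), beside 52.6% for Mki67, and in the reference it was 5 of 230 UMIs, and for Kif23 it was 31.8% and 4.17%. Of the named S phase members Atad2 had the highest share, 28.3% [23.0 to 34.1], and Mcm7, Tyms and Mcm6 the lowest, 4.72%, 5.16% and 7.73%. Ccnd1 was at 4.00% [2.86 to 5.42], and Ccnd2 at 0 of 86 UMIs. For Smc2 the share was 28.3% at 64 h (36 of 127 UMIs) and 4.43% at 96 h (7 of 158).

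**Figure D4:**
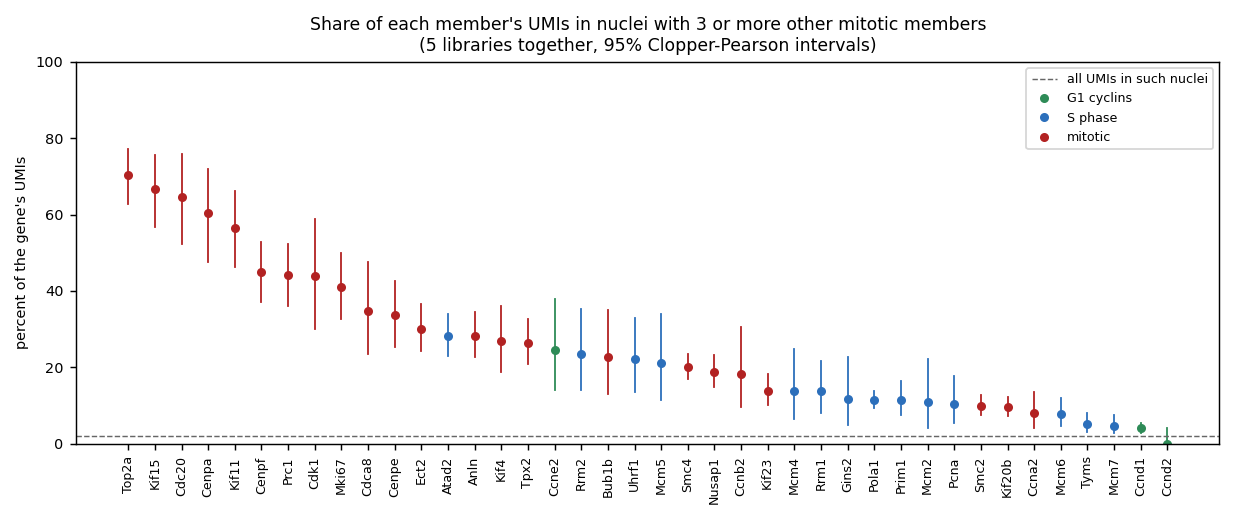
Percent of each named member's UMIs, over the 5 libraries together, that lay in nuclei with at least 3 other mitotic members, with 95% Clopper-Pearson intervals; the dashed line gives the share of all UMIs in such nuclei. Mitotic members run from Top2a at 70.2% to Ccna2 at 8.00%, and S phase members from Atad2 at 28.3% to Mcm7 at 4.72%.

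S phase and mitotic members met in the same nuclei at 64 h, and also in the libraries with fewer such nuclei. At least 2 different S phase members were found in 37 of the 79 nuclei with 4 or more mitotic members (46.8% [35.5 to 58.4]) and in 78 of the other 2933 (2.66% [2.11 to 3.31]). S phase members were at 996 CPM in the 79 nuclei. Among single genes with a UMI, Smc4 was seen in 65.8% of the 79 and 3.38% of the others, Top2a in 57% and 0.648%, and Kif15 in 43.0% and 0.307%. These 3 genes helped to choose the 79 nuclei, so their shares are a description. Of genes that did not, Atad2 was seen in 39.2% and 1.57%, Pola1 in 38.0% and 5.22%, Ccnd1 in 21.5% and 7.81%, Mcm7 in 10.1% and 2.35%, and Tyms in 8.86% and 2.01%. A UMI of the injury genes Havcr1, Krt20 or Lcn2 was present in 30.4% of the 79 and 12.4% of the others. The depth of the 2 sets differs as given above, and its part in these shares was not tested.

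Compared with each other over all nuclei, mitotic members stood further above the reference than S phase members at 64 h and 96 h. S phase UMIs made up 41.2% [39.0 to 43.5] of S phase plus mitotic UMIs in the reference, 32.7% [30.9 to 34.6] at 64 h, 32.6% [29.7 to 35.6] at 96 h, 39.0% [36.2 to 41.9] at 28 d and 41.8% in GFP-negative nuclei. The ratio of mitotic to S phase UMIs was 1.44 [1.27 to 1.64] times that of the reference at 64 h, 1.45 [1.23 to 1.71] times at 96 h and 1.10 [0.940 to 1.28] times at 28 d. In nuclei with fewer than 4 mitotic members, a set chosen on the mitotic members themselves and at a number that depends on depth, the value was 0.948 [0.819 to 1.10] at 64 h and 1.38 [1.16 to 1.65] at 96 h. Without Kif20b and Smc2 the value over all nuclei was 1.81 [1.59 to 2.07], 1.54 [1.30 to 1.84] and 1.00 [0.849 to 1.19], and in nuclei with fewer than 4 mitotic members 1.20 [1.03 to 1.41] and 1.47 [1.21 to 1.77]. Without Pola1 the S phase share was 31.5% [29.2 to 33.9] without injury, 25.9% [24.2 to 27.8] at 64 h and 28.8% [25.9 to 31.7] at 96 h, so the 96 h interval then overlaps that of the reference.

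By segment, PT-like nuclei had higher mitotic sums at both early times, and which of the 2 was higher depended on how the class was drawn. Their mitotic members were at 151, 223, 343 and 183 CPM in the order used above, ratios of 1.47 [1.30 to 1.67], 2.27 [2.02 to 2.55] and 1.21 [1.07 to 1.36]. S phase members were at 104, 132, 164 and 112 CPM, ratios of 1.27 [1.08 to 1.49], 1.58 [1.34 to 1.85] and 1.08 [0.923 to 1.25]. The ratio of mitotic to S phase UMIs was 1.16 [0.945 to 1.43] times that of the reference at 64 h and 1.44 [1.18 to 1.75] times at 96 h. In PT-like nuclei with fewer than 4 mitotic members it was 0.925 [0.734 to 1.17] and 1.42 [1.16 to 1.76]. Without Kif20b and Smc2 it was 1.53 [1.23 to 1.91] and 1.47 [1.18 to 1.82] in all PT-like nuclei. The 64 h mitotic ratio depends on which nuclei are called PT. With the unnamed cluster led by Krt20, Flnc and Havcr1 added (753 nuclei at 64 h, 12 in the reference), the mitotic ratio was 2.23 at 64 h and 2.29 at 96 h. With each nucleus classed by its own markers it was 2.38 and 2.24, and with cell cycle genes in the clustering 1.84 and 1.72. In that cluster mitotic members were at 455 CPM [423 to 489] and S phase members at 211 CPM at 64 h. PT-like nuclei of different times lay in different clusters: 744 of 2292 in the reference lay in a cluster led by Slco1a1, 1867 of 2434 at 96 h in the Fgg/Brca2-led cluster, and 694 of 2149 at 28 d in one led by Gm26870 and Hdc. The PT-like class at 96 h depended on the clustering. It held 2207 nuclei at resolution 2.0 and 515 at resolution 0.5. With cell cycle genes in the clustering it held 720, and a cluster led by Fgg and Brca2 was then unnamed.

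Thin limb-like nuclei held the highest mitotic level of the named segments at 64 h. It was 151, 1861, 657 and 127 CPM, with a 64 h ratio of 12.3 [8.92 to 17.3]. S phase members were at 101, 515, 289 and 127 CPM. The S phase share of S phase plus mitotic UMIs was 40.0% without injury and 21.7% [17.2 to 26.6] at 64 h. Of the 79 nuclei with 4 or more mitotic members at 64 h, 20 lay here, 24.7% [15.8 to 35.5] of 81 thin limb-like nuclei. In 3 other clusterings the number was 18 or 20. The other thin limb-like nuclei had a 64 h mitotic ratio of 3.25 [2.02 to 5.23], from 38 UMIs, and a ratio of mitotic to S phase UMIs 1.12 [0.526 to 2.37] times that of the reference. Top2a went from 0 UMIs to 17 (129 CPM), Cenpf from 0 to 19 (144 CPM), Anln from 3 (10.1 CPM) to 20 (151 CPM) and Ccnd1 from 33.6 to 197 CPM between no injury and 64 h.

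The name of these 20 nuclei rests on their cluster. Their own thin limb markers summed to 1261 CPM, against 1452 CPM in the other 61 thin limb-like nuclei and 449 CPM in all other nuclei of the library. Aqp1 was at 461 CPM and Bst1 at 291 CPM, beside 517 and 352 CPM in the 61. Slc14a2, the urea transporter of the thin descending limb, had 0 UMIs, which allows up to 89.5 CPM, beside 77.0 CPM in the 61. Fst had 2 UMIs (48.5 CPM), beside 198 CPM in the 61. PT markers summed to 4389 CPM in the 20, 3465 CPM in the 61 and 18651 CPM elsewhere. Of the injury genes, Havcr1 was at 291 CPM [150 to 508] in the 20, from 12 UMIs, 88.0 CPM in the 61 and 73.3 CPM elsewhere. Krt20 was at 48.5, 44.0 and 63.9 CPM and Spp1 at 1067, 2464 and 1073 CPM in the same order. By the markers of each single nucleus, 11 of the 20 would be classed as PT, 5 as parietal epithelium and 2 as thin limb. That rule takes the class with most marker UMIs, from 20 PT markers and 9 thin limb markers. PT markers summed higher than thin limb markers in the 61 as well, and how many of the 61 it would class as PT was not counted.

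In TAL-like nuclei the mitotic members were highest at 96 h. They were at 127, 255, 513 and 159 CPM, with ratios of 2.01 [1.45 to 2.84], 4.06 [2.85 to 5.83] and 1.26 [0.776 to 2.00]. S phase members were at 102, 192, 184 and 164 CPM, so that the ratio of mitotic to S phase UMIs was 2.24 [1.22 to 4.13] times the reference at 96 h and 1.07 [0.636 to 1.78] at 64 h. In TAL-like nuclei with fewer than 4 mitotic members the 96 h mitotic ratio was 2.58 [1.74 to 3.84], and that of mitotic to S phase UMIs 1.48 [0.777 to 2.82]. Mki67 had 2, 2, 9 and 0 UMIs, and Kif23 was at 29.8, 74.1, 72.6 and 61.5 CPM in these nuclei. The TAL-like nuclei at 96 h lay almost wholly in a cluster led by Lcn2 and Clu (357 of 392), as did 289 of 479 at 64 h and 1 of 330 in the reference. The 4 TAL-like nuclei with 4 or more mitotic members at 64 h, and the 6 at 96 h, were all in that cluster. At resolution 0.5 the TAL-like class was smaller, 257 nuclei at 64 h and 76 at 96 h, and held none of them.

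Distal and other classes held few UMIs of the members. CNT-like nuclei had mitotic levels of 289, 658, 430 and 98.3 CPM, ratios of 2.28 [1.62 to 3.19], 1.49 [0.736 to 2.76] and 0.340 [0.173 to 0.618]. DCT-like nuclei had 10 mitotic UMIs without injury (50.6 CPM) and 32 at 64 h (594 CPM), 1 nucleus of 49 holding 4 or more members. No intercalated-like nucleus of 62 at 64 h held 4 or more, which allows a share of up to 4.84%, at a median of 1054 UMIs. Of the 25 such nuclei at 96 h, 13 were in the Fgg/Brca2-led PT-like cluster and 6 in the Lcn2/Clu-led TAL-like cluster. The PT-like class held 14 of the 25 here and 11 at resolution 2.0. It held 2 with cell cycle genes in the clustering and 1 at resolution 0.5. At 28 d macrophage-like nuclei, 36 against 2 in the reference, held 34 mitotic UMIs (874 CPM) and 2 of the 7 nuclei with 4 or more members.

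**Figure D5:**
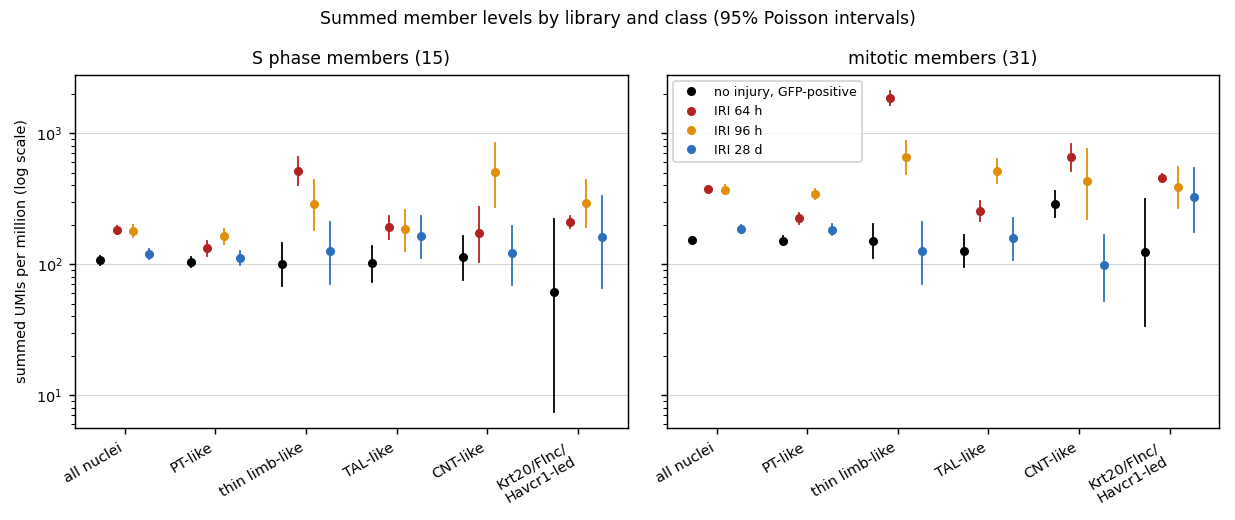
Summed level of the 15 S phase members (left) and the 31 mitotic members (right) in all nuclei and in 5 sets of nuclei, in CPM on a log axis, for the 4 GFP-positive libraries, with 95% Poisson intervals. The thin limb-like mitotic sum at 64 h, 1861 CPM, stands apart from all other points, and the TAL-like and PT-like mitotic sums are highest at 96 h.

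Other genes of the cycle, from lists that are not among the 50 members, were counted by the same rule, to be read against the shares of all genes given above (22.5% higher and 11% lower at 64 h, 34.3% and 15% at 96 h). Of 55 further mitotic genes tested, 42 were at least 1.5-fold higher and 1 lower at 64 h (median log2 ratio 1.13), and of 44 at 96 h 32 were higher and none lower (1.11). Tacc3, a spindle protein, was at 1.26, 5.78, 14.0 and 4.25 CPM, Kifc1, a kinesin of the spindle, at 1.12, 8.67, 8.08 and 2.39 CPM, Ckap2 at 1.82, 10.9, 7 and 1.06 CPM, and Birc5, survivin, at 1.54, 9.33, 5.39 and 1.33 CPM. Pbk was at 34.2, 58.4, 168 and 81.5 CPM and thus, like Smc2, was highest at 96 h. Of further S phase genes, 17 of 42 were higher and 1 lower at 64 h (median 0.46), and 17 and 4 of 41 at 96 h (0.47), the latter near the shares of all genes. Among them the ligase gene Lig1 had ratios of 3.44 [1.68 to 7.49] and 6.74 [3.17 to 15], Dtl of 7.68 and 6.42, Pole of 3.38 and 2.73 and Wdhd1 of 1.97 and 3.01. Cdc45, a part of the replicative helicase, was at 1.13 [0.568 to 2.19] at 64 h and 6.58 [3.88 to 11.4] at 96 h.

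Of the cyclin-dependent kinase inhibitors and arrest genes, 10 of 21 were higher and 1 lower at 64 h, and 11 and 2 at 96 h. Cdkn1a, which encodes p21, was at 8.95, 30.4, 60.9 and 12.2 CPM, ratios of 3.40 [2.51 to 4.65], 6.80 [4.96 to 9.40] and 1.36 [0.914 to 2.02]. Btg2 was at 11.0, 41.3, 50.6 and 16.7 CPM, Gadd45a at 10.8, 40.4, 28.6 and 15.4 CPM, Plk3 at 53.3, 114, 207 and 80.7 CPM and Sesn2 at 27.4, 50.7, 94.8 and 54.7 CPM. Of 22 checkpoint and replication repair genes, 15 were higher and none lower at 64 h, and of 20 at 96 h 12 were higher and 2 lower. Brca2, a gene of homologous recombination, had the largest ratio of that list: it was at 25.7, 88.4, 479 and 61.0 CPM, and 18.6 [15.9 to 22.0] times the reference at 96 h. Brca1, in contrast, was at 6.71, 14.9, 24.8 and 11.4 CPM, Fancd2 at 3.08, 7.11, 13.5 and 6.10 CPM, Rad51b at 9.23, 31.6, 25.3 and 10.4 CPM and Rad51ap1 at 1.40, 2.89, 7 and 1.86 CPM. Brca2 is also among the genes that lead the 96 h PT-like cluster.

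Of the G1 kinases and E2F genes, 10 of 24 were higher and none lower at 64 h, and 9 and 3 of 23 at 96 h, the latter near the shares of all genes. Cdk6, a partner of cyclin D1, was at 107, 262, 168 and 201 CPM and so remained 1.87 [1.69 to 2.07] times the reference at 28 d, where Ccnd1 was at 0.908. E2f1 was at 1.96, 4.67, 6.46 and 2.65 CPM, Cdc25b, a phosphatase that activates Cdk1, at 4.75, 12.9, 16.7 and 7.70 CPM, Pkmyt1, a kinase that holds Cdk1 back, at 0.839, 5.55, 6.46 and 2.39 CPM, and Lin54, the subunit of MuvB that binds the CHR, at 36.3, 55.3, 107 and 49.4 CPM. Tubule injury genes were called in 16 of 18 at 64 h, 17 of 19 at 96 h and 13 of 18 at 28 d, each with none or 1 lower. Havcr1, kidney injury molecule 1, was at 7.69, 75.5, 167 and 25.5 CPM. Lcn2, the iron-binding lipocalin, was at 0.559, 17.8, 52.8 and 3.45 CPM, the fibrinogen chain gene Fgg at 1.12, 18.9, 69.5 and 1.86 CPM and complement C3 at 5.87, 12.4, 101 and 24.2 CPM. Fgb, another fibrinogen chain, had 0 UMIs in the reference and was at least 12.7-fold higher at 64 h and 62.9-fold at 96 h, against a floor of 3 UMIs in the reference. At 28 d the injury list was thus still called in most of its genes, while further mitotic genes had 5 higher and 3 lower of 33, and further S phase genes 3 and 3 of 41. Among all genes 13.8% were higher and 9.19% lower at 28 d.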

How the data were processed

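Single nuclei of 5 libraries were sequenced with 10x 3′ chemistry. The UMI count matrices were made by the authors from the reads with Cell Ranger 2.1, bcl2fastq 2.17 and STAR 2.5.1b, with mm10 as the build, per the submitters' processing notes, and are whole counts with no scaling. How reads in introns or on the opposite strand were counted is not given in the sources used here. The 50 members, the other gene lists and the markers were chosen with earlier results of these data known.

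Barcodes entered with 200 genes or more and a mitochondrial share of 10% or less. Counts were summed per library or class and divided by all UMIs of that set (CPM). Ratios have exact conditional intervals, shares Clopper-Pearson intervals and levels Poisson intervals, all at 95% and covering counting error only. Those on UMI counts treat UMIs of the same nucleus as independent. A gene was called at 1.5-fold on CPM + 1 with at least 10 UMIs in the pair of libraries; no test was possible with 1 library per group. Members with at least 50 UMIs were named, and from each other list up to 5 genes with as many UMIs and the largest log2 ratio, up or down, at 64 h or 96 h.

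Nuclei were clustered with scanpy 1.11.5 (Leiden, resolution 1.0) on 2000 variable genes without 229 genes of the cell cycle lists, which gave 25 clusters. A cluster was named from at least 3 detected markers and a margin of 0.3 to the next class. No doublet caller was run; an alternative left out the 2% of nuclei with most UMIs. Thinning drew 500 or 300 UMIs per nucleus. TMM factors came from edgeR 4.0.16 in R 4.3.3, and other steps used Python 3.11.15, numpy 2.4.6, scipy 1.17.1 and pandas 2.3.3. Calls and intervals were tested on simulated independent Poisson counts. These lack the gathering of UMIs in few nuclei, so they do not test the intervals for it. Alternatives without Smc2, without Kif20b and Smc2 and with the Krt20-led cluster added to the PT-like nuclei were chosen after the data were seen. Promoters came from RefSeq (GRCm38.p6), and gene positions from GENCODE vM21; members without a promoter in the table are not shown.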

Additional observations from a re-analysis of the deposited data

Results flagged for a closer look

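At 28 d the mitotic sum of CNT-like nuclei stood on the other side of the reference from that of PT-like and DCT-like nuclei, with intervals that do not meet. It was 0.34 times the reference in CNT-like nuclei, from 74 UMIs without injury and 13 at 28 d, against 1.21 times in PT-like nuclei and 3.83 times in DCT-like nuclei, from 10 UMIs in each library. Without Kif20b and Smc2 the PT-like ratio was 1.00 [0.855 to 1.18]. At least 4 mitotic members were found in 1 of 121 CNT-like nuclei in the reference and in 0 of 97 at 28 d. The part of that nucleus in the CNT-like ratio was not tested. The difference between classes was not tested, since each group is 1 library.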

How the results depend on the processing

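Of 144 values recomputed under other settings, 64 left the 95% counting interval of the reported value (for counts of members, a factor of 1.5 from it), 80 did not, and no ratio of a sum crossed 1. A count within that factor can still differ, as 39 members higher at 64 h against 28 with 5 CPM added. The mitotic ratio of all nuclei, 2.46 at 64 h and 2.44 at 96 h, became 2.13 and 1.92 under TMM scaling, and 2.98 and 3.01 without Kif20b. It became 3.10 at 64 h without Kif20b and Smc2, 2.27 at 64 h without the 2% of nuclei with most UMIs, 2.07 at 96 h without Smc2 and 2.88 at 96 h with 400 genes or more and a mitochondrial share of 5% or less. The S phase ratio of all nuclei became 1.48 at 64 h and 1.33 at 96 h under TMM scaling, and 2.14 at 96 h without Pola1. In PT-like nuclei the mitotic ratio at 64 h, 1.47, became 1.28 under TMM scaling, 1.82 at resolution 2.0, 1.84 with cell cycle genes in the clustering, 2.38 by each nucleus's own markers, 2.23 with the Krt20-led cluster and 1.94 without Kif20b and Smc2. At 96 h it became 1.73 (TMM), 1.63 (resolution 0.5) and 1.72 (with cell cycle genes), and at 28 d 1.00 without Kif20b and Smc2. The PT-like S phase ratio became 1.63 (own markers) and 1.65 (with the Krt20-led cluster) at 64 h. At 96 h it became 1.20 [1.02 to 1.41] (TMM) and 1.23 [0.863 to 1.70] (resolution 0.5). Under TMM scaling at 64 h it was 1.10 [0.934 to 1.29], within the reported interval. The intervals of that value and of the one at resolution 0.5 held 1. The S phase share, in the order GFP-negative, no injury, 64 h, 96 h and 28 d, was 34.3%, 31.5%, 25.9%, 28.8% and 29.7% without Pola1, and 48.6%, 50.2%, 35.7%, 39.5% and 50.1% without Kif20b and Smc2. Without Kif20b it became 46.4%, 47.1% and 44.6% in GFP-negative, no injury and 28 d nuclei. Nuclei with 2 or more mitotic members, in that order, became 0.495%, 0.314%, 2.34%, 2.19% and 0.398% thinned to 500 UMIs, and 0.389%, 0.228%, 0.963%, 0.815% and 0.121% thinned to 300. Asking for 3 members gave 0.539%, 0.656%, 3.35%, 1.06% and 0.273%. Members called lower at 64 h became 0 at a fold of 2. At 96 h, members called higher became 18 (at least 30 UMIs) and 20 (fold of 2), and those called lower became 1 under these rules and with 5 CPM added. At 28 d those higher became 2 (at least 30 UMIs) and 4 (fold of 2, or 5 CPM added), and those lower 0 under the last 2 rules. The causes of these shifts were not tested. Depth limits single genes: 3 UMIs are 1.62 CPM at 96 h and 0.419 CPM without injury. No paired analysis was possible because each group is 1 library.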
